A study of Mus musculus with 30 samples.

Results

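Control mouse aortas fell into 2 sets of 6 libraries by their level of *Col3a1*, which encodes the chain of type III collagen, and the 12 libraries are described here by that division. They are the *Col3a1*+/+ libraries (genotype WT), 6 from mice given hydralazine and 6 from untreated mice, of 30 bulk RNA-seq libraries in the series. Libraries were grouped by the *Col3a1* level in CPM (the count scaled to the total of its file), with those above 10000 CPM called *Col3a1*-high and those below it *Col3a1*-low. This division was made from the measured values and not from a label, so that differences between the sets are descriptions without a test, and *Col3a1* is left out of every count of separated genes. Hydralazine, a vasodilator, was given in drinking water from birth at 32 mg/kg/day, and the untreated mice received no drug. All mice were male and on a C57BL/6J background, and the descending thoracic aorta was taken after the adventitia had been stripped. The other 18 libraries come from heterozygous *Col3a1* G938D mice (genotype Het), which model vascular Ehlers-Danlos syndrome (VEDS). Of these, 6 were on hydralazine, 6 untreated, 3 on hydralazine with bicalutamide and 3 on hydralazine with spironolactone. The antagonists were mixed into chow from day 21 (50 mg/kg/day of bicalutamide, 100 of spironolactone), with harvest on day 60. Each group of 6 holds 3 mice harvested on day 30 and 3 on day 60, but the labels used here do not give the day of a single library. Libraries were assigned no harvest day, and the part of harvest day in the values below was not tested.

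The wall of a growing artery is built by smooth muscle cells that both divide and secrete matrix. Elastin is laid down mostly early in life on a scaffold of fibrillin microfibrils and is cross-linked by lysyl oxidases. Fibrillar collagens are folded with dedicated chaperones, then trimmed and assembled into load-bearing fibres. Mature smooth muscle cells divide rarely and are rich in contractile proteins and in the integrins that tie them to the matrix.

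The values that set the libraries apart left a gap. In hydralazine-treated controls, *Col3a1* stood at 16325, 16735 and 15849 CPM of the file total in the high libraries, against 4430, 7652 and 5019 CPM in the low ones. In untreated controls the high libraries had 14724, 15420 and 15732 CPM, and the low ones 5178, 4594 and 4303 CPM. The library just above the threshold thus had 14724 CPM and the library just below it 7652 CPM, and each treatment contributed 3 libraries to each set. *Eln*, which encodes elastin, did not overlap between the sets in either treatment. It stood at 15966, 15722 and 17526 CPM in high and at 3392, 6657 and 3124 CPM in low hydralazine libraries, and at 11964, 10260 and 10918 CPM in high and 3394, 2269 and 2447 CPM in low untreated libraries. *Mki67*, the proliferation antigen Ki-67, had 78.1, 75.6 and 70.3 CPM in high hydralazine libraries, against 19.1, 17.6 and 19.6 CPM in low ones. In untreated libraries it had 79.2, 140 and 21.3 CPM in the high set and 7.75, 13.1 and 9.25 CPM in the low set. Control_Untx replicate 6, with 21.3 CPM of *Mki67* at 15732 CPM of *Col3a1*, was thus matrix-rich and close to the low libraries in *Mki67*. The 6 VEDS libraries of labelled day 60 had 5173 to 7413 CPM of *Col3a1*, 4026 to 5630 CPM of *Eln* and 13.8 to 33.3 CPM of *Mki67*, all below the threshold for *Col3a1*.

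**Figure D1:**
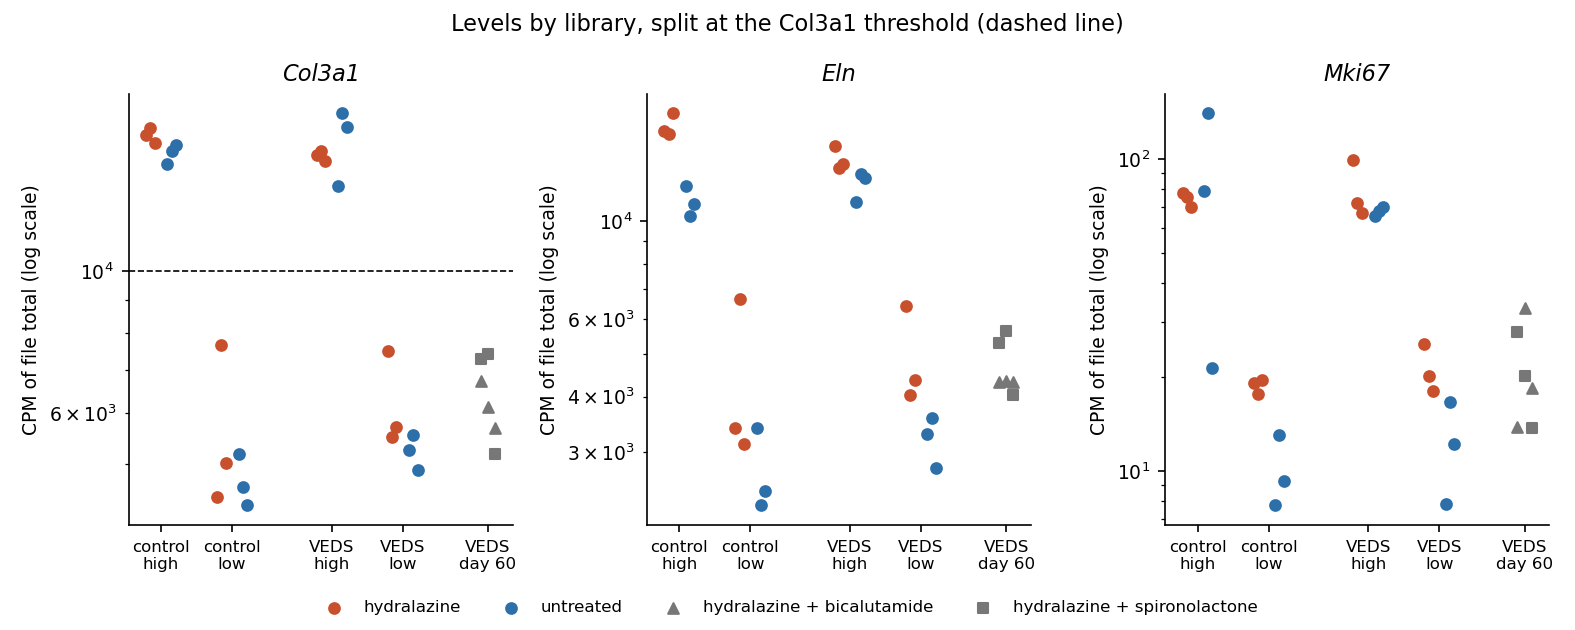
*Col3a1*, *Eln* and *Mki67* in CPM of the file total on a log scale, with 1 point per library, for the *Col3a1*-high and *Col3a1*-low control aortas, VEDS aortas divided the same way and VEDS aortas of labelled day 60; orange points are hydralazine, blue points untreated, grey points hydralazine with an antagonist, and the dashed line is the threshold of 10000 CPM. No library lies between 7652 and 14724 CPM of *Col3a1* among the controls, and untreated replicate 6 is the single high control with *Mki67* at 21.3 CPM.

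Depth overlapped between the sets, with 5708827 to 8293289 counts per high library and 6082890 to 7137415 per low library. From here on levels are CPM scaled with trimmed mean of M-values (TMM) factors, and differences are log2 fold changes, high over low, from an edgeR fit with treatment as a covariate. Smooth muscle transcripts were present in all 12 libraries, with the smooth muscle myosin heavy chain *Myh11* at 5212 to 8059 CPM in high and 8419 to 9812 CPM in low libraries. Transcripts of other tissues were present too. The summed hepatocyte list of 18 genes ranged from 1707 to 17949 CPM in high and from 1249 to 11919 CPM in low libraries, and the brown adipocyte list of 9 from 528 to 994 CPM in high and from 220 to 608 CPM in low libraries. Control_Hydral replicate 5 stood apart with 1072 CPM over the 12 cardiomyocyte markers, against 138 to 298 CPM in the other 11 libraries. Control_Untx replicate 6 stood apart in proliferation, and Control_Hydral replicate 4 had the highest levels of most separated collagens in the low set. In a principal component analysis of the 13396 fitted genes, the first component carried 42.8% of the variance and did not separate the sets. Control_Hydral replicate 5, a high library, lay at -19.4 on it, and Control_Untx replicate 2, a low library with 4009 CPM of the albumin transcript *Alb*, at 11.3. In bulk tissue, fewer cells of a type and less RNA per cell cannot be told apart.

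A gene was called separated where high and low libraries did not overlap within hydralazine and within untreated libraries, in the same direction in both, with a log2 fold change of at least 0.25 in size. Of 13396 genes, 701 (5.23%) were separated with higher levels and 675 (5.04%) with lower levels in *Col3a1*-high aortas. These shares are the background for the lists that follow, and since the division uses the same libraries, they are no test of it. The separated genes with higher levels had a median log2 fold change of 0.70 and included 221 of at least 2-fold, while those with lower levels had a median of -0.43 and included 47. Over all genes the median was -0.001, and 49.8% of genes had a positive value. Without Control_Hydral replicate 5 and Control_Untx replicate 6 the count in both directions was 2156 in place of 1376. Leaving out libraries makes an overlap less likely by construction. The expression filter grouped libraries by treatment and set, so that a gene could pass it through the libraries of 1 set alone. With a mean of at least 1 CPM as the filter, which does not use the sets, 698 of 13516 genes were separated higher and 676 lower.

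**Figure D2:**
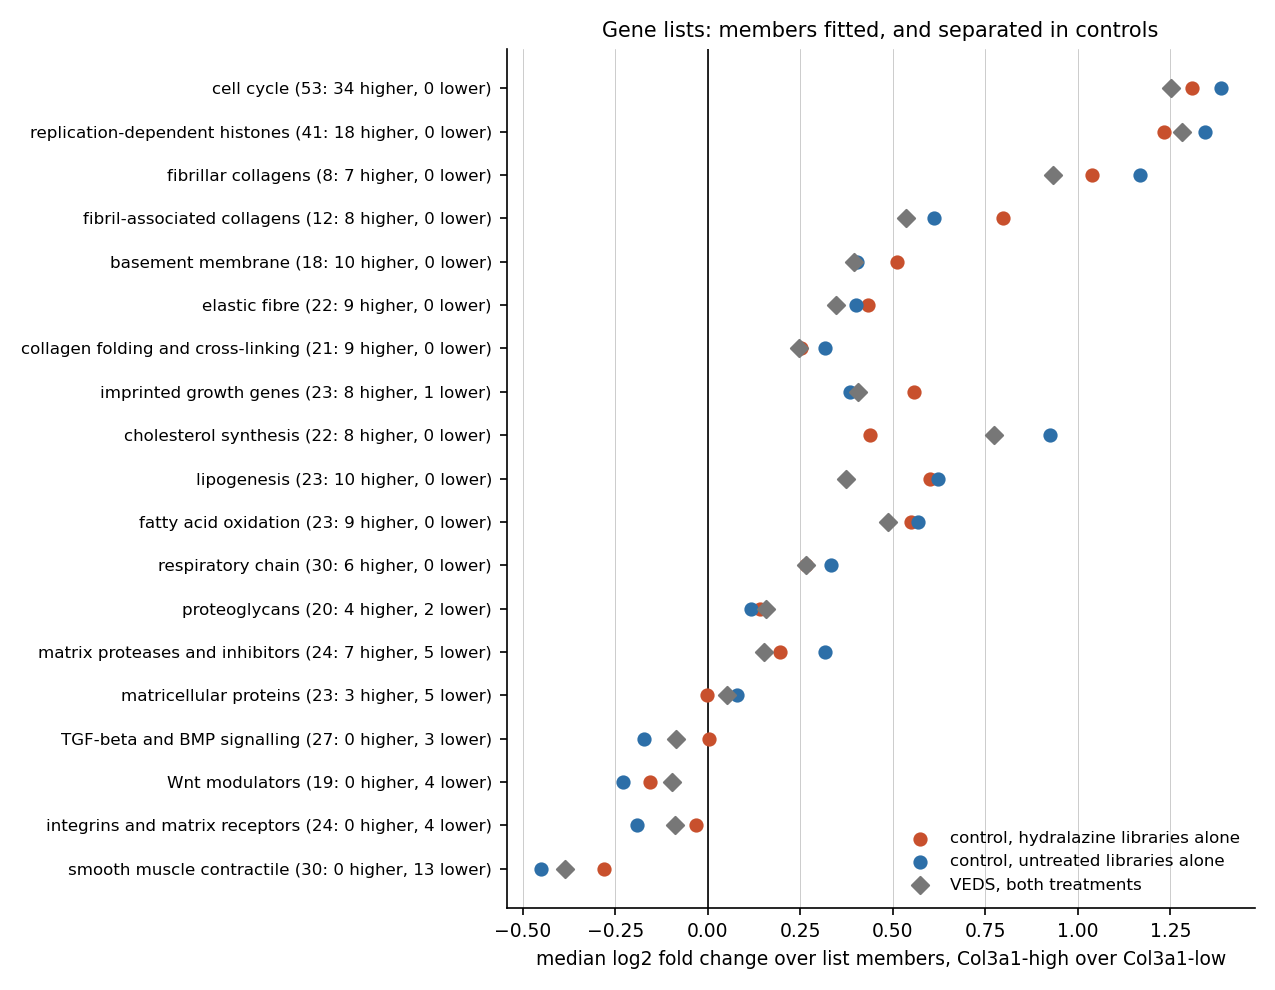
Median log2 fold change, *Col3a1*-high over *Col3a1*-low, of 19 gene lists (rows) in hydralazine-treated controls alone (orange), untreated controls alone (blue) and VEDS aortas (grey diamonds); beside each name stand the members fitted and, after the colon, those separated higher and lower in controls. Cell cycle genes have the highest medians, 1.31 and 1.39 in hydralazine and untreated controls, and contractile genes the lowest, -0.28 and -0.45; where an orange point is hidden it lies under the diamond.

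Collagen genes stood higher in the *Col3a1*-high aortas as a group. Of 8 fibrillar collagen genes fitted, from a list of 10 without *Col3a1*, 7 were separated higher and none lower, with a median log2 fold change of 1.18. *Col1a1*, the major chain of type I collagen, had 5461, 4226 and 4975 CPM in high against 723, 1153 and 971 CPM in low hydralazine libraries. In untreated libraries it had 3478, 3065 and 4707 CPM in the high set against 937, 895 and 804 CPM in the low set. The 6 high libraries all lay above the 6 low ones, with a log2 fold change of 2.23, beside 1.61 for *Col3a1* itself. *Col1a2*, the second chain of type I collagen, averaged 6911 ± 985 CPM in high and 2633 ± 638 CPM in low libraries (SD, n = 6 each). The type V chains, which help to start and size collagen fibrils, had log2 fold changes of 1.56 for *Col5a3*, 0.97 for *Col5a1* and 0.69 for *Col5a2*. Among 12 collagens that attach to or connect fibrils, 8 were separated higher and none lower (median 0.68). *Col6a3*, a chain of the beaded-filament type VI collagen, had 1377 to 1786 CPM in high and 704 to 1072 CPM in low libraries, and *Col14a1* had 831 to 983 CPM and 443 to 604 CPM in the same order. *Col19a1*, a collagen that was in neither of these 2 lists and so not counted above, went the other way. It had 12.2 ± 3.97 CPM in high and 34.3 ± 7.60 CPM in low libraries (log2 fold change -1.49).

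Genes of the machinery that makes collagen stood higher by smaller amounts than the fibrillar chains. Of 21 genes for collagen folding, trimming and cross-linking, 9 were separated higher and none lower, with a median log2 fold change of 0.35. *Adamts2*, which cleaves the amino-terminal propeptide of procollagen, averaged 569 ± 85.7 CPM in high and 243 ± 59.1 CPM in low libraries (1.23). *Serpinh1*, the collagen chaperone HSP47, had 1298 ± 110 and 867 ± 125 CPM (0.58), *P4ha2*, a subunit of prolyl 4-hydroxylase, had 55.2 ± 3.16 and 35.6 ± 6.48 CPM (0.63), and *Bmp1*, the carboxy-propeptide protease, had 226 ± 24.7 and 152 ± 17.7 CPM (0.57), in high and low libraries in that order.

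Elastic fibre and basement membrane genes showed the same direction. Of 22 elastic fibre genes, 9 were separated higher and none lower, with a median log2 fold change of 0.41. *Eln* had a log2 fold change of 1.96, or 3.90-fold. *Lox*, the lysyl oxidase that cross-links elastin and collagen, had 1095, 936 and 1073 CPM in high against 388, 623 and 457 CPM in low hydralazine libraries, and 884, 1068 and 799 CPM in high against 496, 356 and 437 CPM in low untreated libraries. Its lowest high library thus exceeded its highest low library, at a log2 fold change of 1.09. *Fbn1*, the fibrillin of microfibrils, averaged 2575 ± 193 CPM in high and 1424 ± 206 CPM in low libraries (0.86). The microfibril-associated genes *Mfap2* and *Mfap5* had log2 fold changes of 1.57 and 1.02. Of 18 basement membrane genes, 10 were separated higher and none lower (median 0.45). They included the nidogens *Nid2* (1.25) and *Nid1* (0.98), the laminin chains *Lamb1* (1.18) and *Lamc1* (0.85) and *Col4a5* (0.88). Control_Hydral replicate 4 was the highest low library for 6 of 7 separated fibrillar collagens, 8 of 8 fibril-associated collagens and 8 of 9 elastic fibre genes, with *Eln* at 6707 CPM against 2210 to 3497 CPM in the other low libraries.

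Matrix genes did not all run this way. Of 20 proteoglycan genes, 4 were separated higher and 2 lower. *Lum*, lumican, averaged 162 ± 37.8 CPM in high and 110 ± 12.0 CPM in low libraries (log2 fold change 0.54), whereas *Ogn*, osteoglycin, had 874 to 1134 CPM in high and 1388 to 1516 CPM in low libraries (-0.50). Of 24 matrix proteases and inhibitors, 7 were separated higher and 5 lower. Gelatinase A (*Mmp2*, 0.83), its activator *Mmp14* (0.79) and cathepsin K (*Ctsk*, 0.77) were among those with higher levels. Among the genes with lower levels, *Timp3*, a matrix-bound inhibitor of metalloproteinases, had 679 to 813 CPM in high and 1055 to 1236 CPM in low libraries (-0.64). Matricellular genes, whose products sit in the matrix and signal to cells, were also divided, with 3 of 23 separated higher and 5 lower. *Sparc*, which binds collagen, averaged 5895 ± 802 CPM in high and 2834 ± 854 CPM in low libraries (1.06). Its homologue *Sparcl1* averaged 152 ± 21.6 CPM in high and 400 ± 27.5 CPM in low libraries (-1.40), and *Comp*, cartilage oligomeric matrix protein, 10.9 ± 1.25 and 30.9 ± 4.78 CPM (-1.49) in that order. Neither *Sparc* nor *Sparcl1* overlapped between the 6 high and the 6 low libraries.

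Cell cycle genes had the highest median of the 46 lists when all 12 libraries were fitted. Of 53 genes fitted from a list of 56, 34 were separated higher in *Col3a1*-high libraries and none lower, with a median log2 fold change of 1.61. *Top2a*, the topoisomerase that untangles replicated chromosomes, had 42.2, 36.2 and 37.9 CPM in high against 7.05, 9.35 and 9.80 CPM in low hydralazine libraries, and 41.0, 70.6 and 10.9 CPM in high against 5.21, 4.19 and 4.22 CPM in low untreated libraries. The 6 high and 6 low libraries did not overlap, and Control_Untx replicate 6 had the lowest level of the high set. *Mki67* (2.46), *Top2a* (2.61), the kinetochore gene *Cenpf* (2.59), the spindle gene *Aspm* (2.51) and the cytokinesis genes *Prc1* (2.47) and *Kif20a* (2.41) were among the 10 separated genes with the largest log2 fold changes at a mean of at least 5 CPM. *Cdk1*, the mitotic kinase, stood at 1.82 to 12.1 CPM in high and 0.466 to 1.84 CPM in low libraries, which overlapped across treatments. Of 41 replication-dependent histone genes, 18 were separated higher and none lower (median 1.39), among them *H1f1* (2.11), *H2bc3* (1.47) and *H4c1* (1.34). Histone genes of a cluster are near-identical, so single members are uncertain. Control_Untx replicate 6 was the lowest of the 6 high libraries for 28 of the 34 separated cell cycle genes and 17 of the 18 separated histones, and for none of the 7 separated fibrillar collagens. Without it and Control_Hydral replicate 5 the median of the cell cycle list was 1.84 and that of the fibrillar collagens 1.13.

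**Figure D3:**
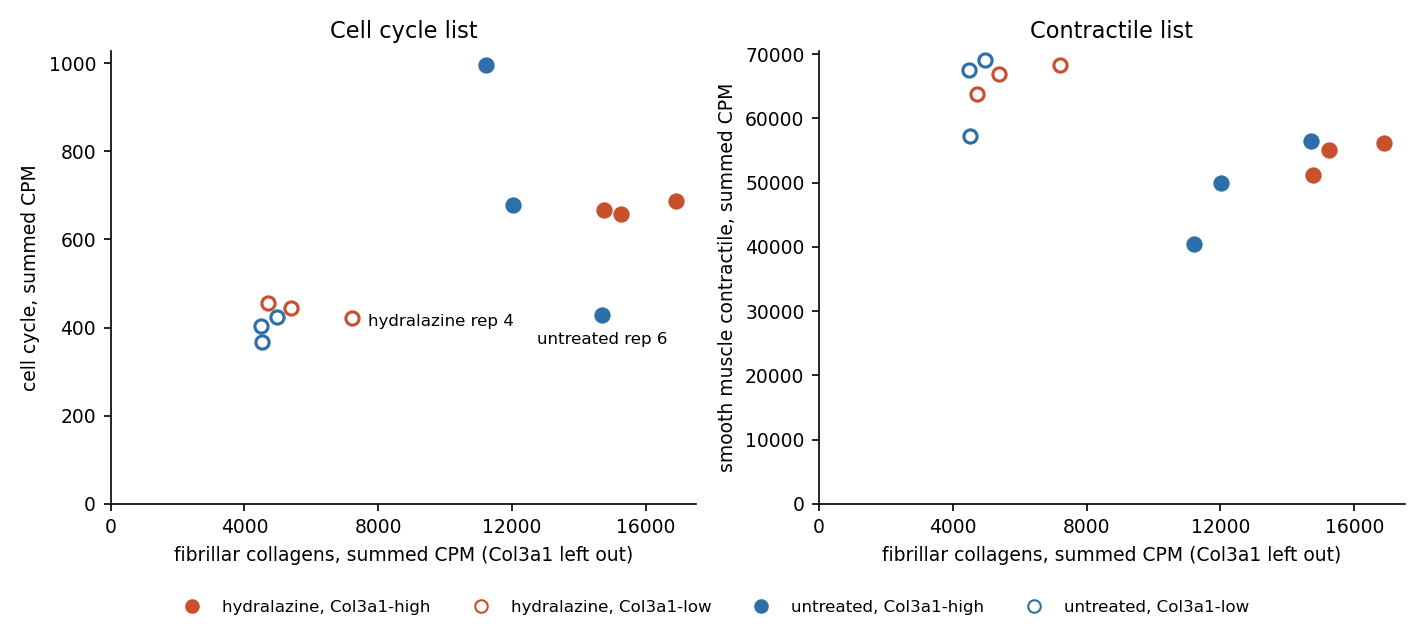
Summed CPM of the cell cycle list (left) and of the smooth muscle contractile list (right) against the summed CPM of the fibrillar collagens without *Col3a1*, with 1 point per control library; filled points are *Col3a1*-high, open points *Col3a1*-low, orange hydralazine and blue untreated. Untreated replicate 6 has a fibrillar collagen sum of 14699 CPM like the other high libraries and a cell cycle sum of 428 CPM, within the 366 to 455 CPM of the low libraries.

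The promoters of 3 of these genes are shown because genes of late cell cycle phases commonly carry a CCAAT box and the cell cycle homology region TTTGAA near their start. They are the 250 bases before the annotated start in RefSeq (GRCm38.p6, an earlier build than the mm39 of the counts), 5′ to 3′, on the minus strand of chromosomes 7, 11 and 1, with matches to TTTGAA or CCAAT on either strand in capitals.
Mki67: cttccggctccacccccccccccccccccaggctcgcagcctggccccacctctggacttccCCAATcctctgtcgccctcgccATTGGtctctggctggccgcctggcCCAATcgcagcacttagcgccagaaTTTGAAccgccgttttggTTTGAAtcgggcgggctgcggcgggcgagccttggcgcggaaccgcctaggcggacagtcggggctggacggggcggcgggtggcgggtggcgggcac
Top2a: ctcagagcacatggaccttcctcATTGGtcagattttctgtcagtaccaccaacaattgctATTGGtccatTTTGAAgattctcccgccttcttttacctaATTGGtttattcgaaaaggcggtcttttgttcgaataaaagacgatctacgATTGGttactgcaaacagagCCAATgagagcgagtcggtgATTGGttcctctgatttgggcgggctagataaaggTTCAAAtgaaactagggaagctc
Cenpf: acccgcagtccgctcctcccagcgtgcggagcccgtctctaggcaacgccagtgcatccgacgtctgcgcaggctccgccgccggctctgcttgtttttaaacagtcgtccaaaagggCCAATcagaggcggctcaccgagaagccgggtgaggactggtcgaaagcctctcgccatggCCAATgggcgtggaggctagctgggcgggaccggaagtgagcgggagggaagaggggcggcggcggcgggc
*Mki67* held 2 TTTGAA and 3 CCAAT matches, *Top2a* 2 and 6, and *Cenpf* 0 and 2. Of the 34 separated cell cycle genes, 27 had a promoter in the table, and 33.3% of these held TTTGAA and 85.2% CCAAT. Among the 10667 fitted genes with a promoter, 13.1% held TTTGAA and 40.6% CCAAT, and among all 27025 genes with a promoter these shares were 18.3% and 37.5%. Of the 19 cell cycle genes that were fitted and not separated, 16 had a promoter, and 37.5% of these held TTTGAA and 62.5% CCAAT. The motifs do not overlap each other in sequence, and a match is a description of these letters.

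Several growth genes were higher in the *Col3a1*-high libraries. Of 23 imprinted genes fitted from a list of 30, 8 were separated higher and 1 lower, with a median log2 fold change of 0.50. *H19*, a maternally expressed long non-coding RNA, had 17.5, 13.1 and 12.3 CPM in high against 1.97, 3.12 and 3.27 CPM in low hydralazine libraries. In untreated libraries it had 13.7, 17.8 and 6.53 CPM in the high set against 2.61, 2.79 and 1.83 CPM in the low set. Its log2 fold change was 2.36, and again Control_Untx replicate 6 was the lowest high library. *Igf2*, the fetal growth factor next to *H19*, averaged 11.7 ± 1.12 CPM in high and 6.31 ± 0.958 CPM in low libraries (0.89), and *Grb10*, an adaptor that restrains insulin signalling, 161 ± 19.2 and 98.7 ± 10.6 CPM (0.71). *Impact*, also imprinted, was the 1 with lower levels, at 40.1 to 50.1 CPM in high and 58.4 to 68.9 CPM in low libraries. Of 15 genes of the insulin-like growth factor axis, 3 were separated higher and none lower. *Igf1* averaged 236 ± 57.7 CPM in high and 94.8 ± 16.7 CPM in low libraries (1.30), and the binding protein *Igfbp3* 9.01 ± 1.90 and 2.10 ± 0.467 CPM (2.10). *Igf1* and *Igfbp3* are also liver transcripts, and *Alb* ranged over 732 to 8368 CPM in high and 403 to 4009 CPM in low libraries. The part of liver transcripts in these values was not tested. Of 10 DNA methylation genes, 5 were separated higher and 1 lower, including the de novo methyltransferase *Dnmt3a* (0.53) and the demethylating enzyme *Tet1* (0.66).

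Contractile genes ran in the opposite direction. Of 30 genes fitted, 13 were separated lower in *Col3a1*-high aortas and none higher, and the median log2 fold change was -0.36. *Tagln*, the actin-binding protein SM22α, had 3103, 2801 and 2892 CPM in high against 4042, 3819 and 3999 CPM in low hydralazine libraries. In untreated libraries it had 2985, 2267 and 3203 CPM in the high set against 4246, 3427 and 4101 CPM in the low set. The highest high library lay below the lowest low one, at a log2 fold change of -0.45. *Myh11* averaged 7021 ± 979 CPM in high and 9363 ± 505 CPM in low libraries (-0.42), *Mylk*, the kinase of the myosin light chain, had a log2 fold change of -0.51, and *Pgm5*, aciculin of adherens junctions, averaged 452 ± 55.8 CPM in high and 807 ± 48.9 CPM in low libraries (-0.84). *Synpo2*, an actin-bundling protein, was separated as well (-0.72). *Acta2*, smooth muscle α-actin, had 6733 to 9208 CPM in high and 7947 to 11732 CPM in low libraries, and overlapped. Of 24 integrins and matrix receptors, 4 were separated lower and none higher. *Itga1*, the α1 subunit of a collagen receptor, had 209 to 243 CPM in high and 291 to 362 CPM in low libraries (-0.53), and its partner *Itgb1* 1137 to 1346 and 1530 to 1696 CPM (-0.43). *Itgb5* (-0.43) and *Itga3* (-0.40) were separated within each treatment but overlapped over all 12 libraries.

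**Figure D4:**
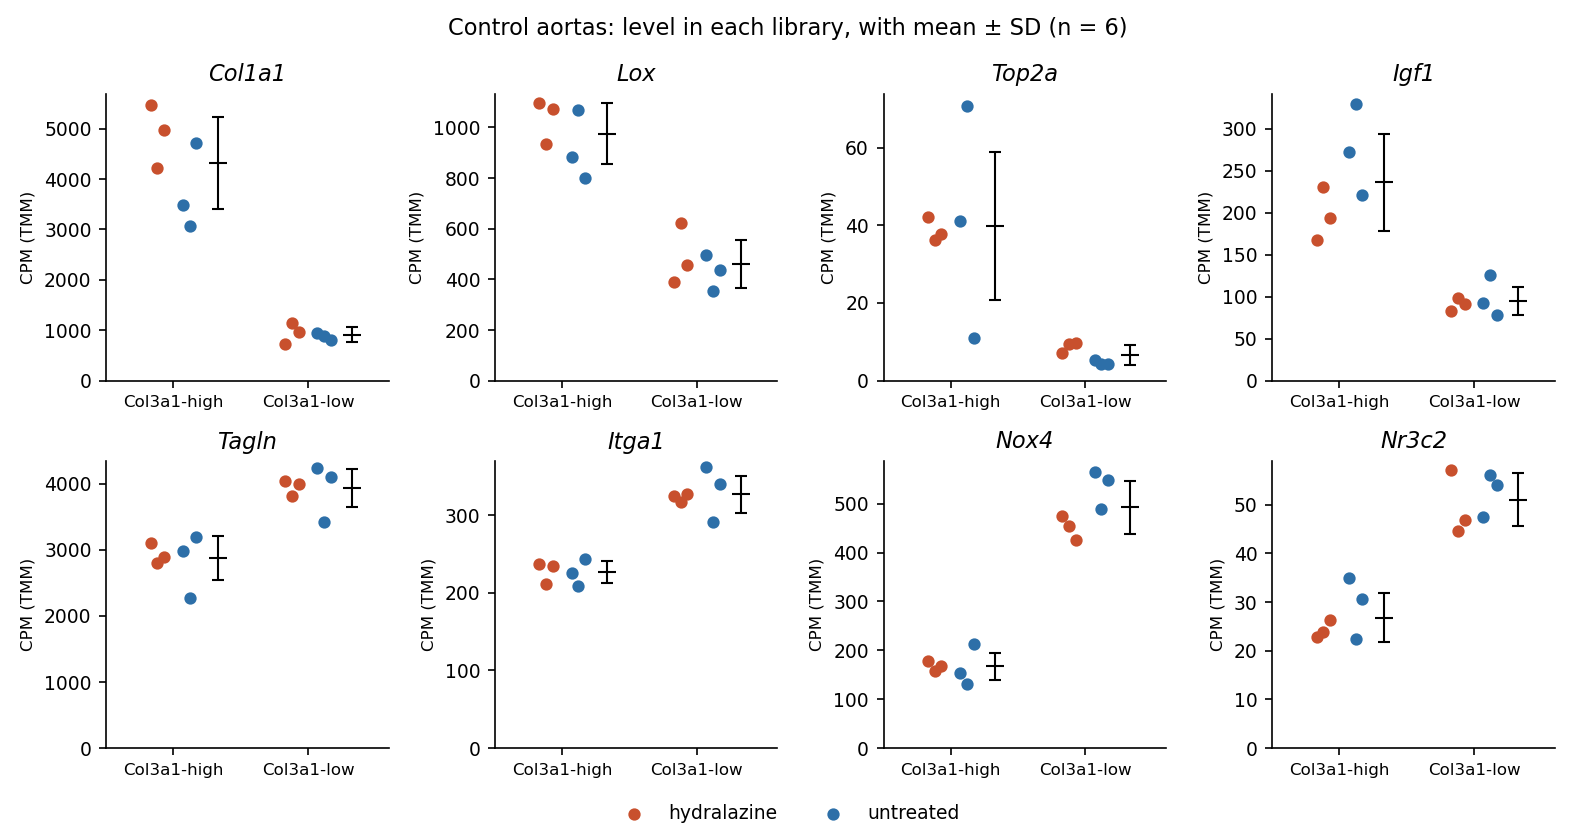
Levels of 8 genes in TMM-scaled CPM, with 1 point per control library (orange hydralazine, blue untreated) and the mean ± SD of each set (n = 6). *Col1a1*, *Lox*, *Top2a* and *Igf1* lie higher in all *Col3a1*-high than in all *Col3a1*-low libraries, and *Tagln*, *Itga1*, *Nox4* and *Nr3c2* lie lower in all of them.

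*Nox4*, the NADPH oxidase that releases hydrogen peroxide in vascular smooth muscle, was among the 10 separated genes with the lowest log2 fold changes at a mean of at least 5 CPM. It had 178, 157 and 168 CPM in high against 476, 454 and 427 CPM in low hydralazine libraries, and 154, 131 and 214 CPM in high against 566, 489 and 548 CPM in low untreated libraries. The highest of the high libraries had 214 CPM and the lowest of the low ones 427 CPM, with a log2 fold change of -1.56. The other 9 included *Tafa1*, a secreted protein (-2.66), *Sphkap*, which binds protein kinase A (-2.02), the angiopoietin-like *Angptl7* (-1.65) and the potassium channel subunit *Kcnq3* (-1.57). Of 17 steroid receptors and hormone-responsive genes, 2 were separated, both lower, 1 of them *Nr3c2*. *Nr3c2*, the mineralocorticoid receptor, had 22.8, 23.8 and 26.2 CPM in high against 57.2, 44.6 and 46.8 CPM in low hydralazine libraries, and 35.0, 22.4 and 30.5 CPM in high against 47.4, 56.2 and 54.0 CPM in low untreated libraries (-0.93).

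Separated genes of the TGF-β and BMP, Wnt and vasoactive lists lay in 1 direction each, and those of the ion channel list in both. Over all genes 5.23% were separated higher and 5.04% lower, and a count such as 2 of 25 is near these shares. The 4 of 19 Wnt modulators and the 5 of 28 ion channel genes in each direction were larger shares. Of 27 TGF-β and BMP genes, 3 were separated lower, namely the BMP target *Id1* (-0.73), the activin subunit *Inhba* (-0.50) and the ligand *Bmp6* (-0.49), and none higher. Of 19 Wnt modulators, 4 were separated lower, among them the secreted antagonists *Wif1* (-0.57), *Frzb* (-0.47) and *Dkk3* (-0.36). Of 25 vasoactive genes, 2 were separated higher, the angiotensin receptor *Agtr1a* (6.65 ± 2.19 CPM in high and 3.67 ± 0.723 CPM in low libraries) and the endothelin receptor *Ednra* (9.62 ± 1.63 and 6.61 ± 0.945 CPM). Of 28 ion channel genes, 5 were separated in each direction. The pore-forming potassium channel gene *Kcnma1* (-0.32) and its subunit *Kcnmb1* (-0.40) and the calcium release channel *Itpr1* (-0.40) had lower levels in high libraries, and the potassium channel *Kcnk3* (1.08) and the T-type calcium channel *Cacna1g* (1.04) higher levels. Outside the lists, *Adamts17*, a secreted metalloproteinase, had 13.5 to 19.9 CPM in high and 0.931 to 2.93 CPM in low libraries (2.85), and *Cpz*, a carboxypeptidase of the matrix, 24.8 to 38.2 and 4.26 to 6.68 CPM (2.41).

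Genes of lipid metabolism and respiration were separated in 1 direction in *Col3a1*-high aortas, with higher levels. All 23 fatty acid oxidation genes and all 30 respiratory chain genes had a positive log2 fold change, with medians of 0.56 and 0.31, and 9 and 6 of them were separated higher. In lipogenesis 10 of 23 genes were separated higher (median 0.61) and in cholesterol synthesis 8 of 22 (median 0.70), and none was separated lower in any of these 4 lists. *Fasn*, fatty acid synthase, had 1630 to 2678 CPM in high and 364 to 1584 CPM in low libraries (1.09). *Hmgcs1*, an early enzyme of cholesterol synthesis, averaged 166 ± 52.8 CPM in high and 86.9 ± 18.1 CPM in low libraries (0.90). *Cpt2*, which brings fatty acids into the mitochondrial matrix pathway, had a log2 fold change of 0.71 and *Cyc1*, cytochrome c1, of 0.52. The brown fat uncoupling protein *Ucp1* had 248 to 560 CPM in high and 25.3 to 263 CPM in low libraries (1.41), and 7 of 9 brown adipocyte and 10 of 13 adipocyte markers had positive values, with 2 separated higher in each list. Of the hepatocyte markers 17 of 18 had positive values (median 1.19) and none was separated. The part of fat or liver transcripts in the metabolic values was not tested.

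The leading genes at both ends also included liver transcripts. *Cyp2c40* and *Cyp2c69*, cytochrome P450 genes, had 2.02 to 45.0 and 1.09 to 21.4 CPM in high libraries, against 0 to 4.50 and 0 to 0.931 CPM in low libraries. *Mup7*, a major urinary protein gene, had 0 to 9.12 CPM in high and 4.53 to 356 CPM in low libraries, while *Alb* averaged 5509 ± 3027 and 1455 ± 1310 CPM in that order. Within hydralazine libraries *Mup7* was listed at 0, 0.481 and 0 CPM in the high set and at 81.9, 4.53 and 95.5 CPM in the low set. Genes of the Mup family are near-identical, so their single values are uncertain. All 17 macrophage markers had positive log2 fold changes, with a median of 0.79 in untreated and 0.07 in hydralazine libraries alone, and none was separated. The cardiomyocyte list had a median of 1.35 with all libraries and of -0.64 without Control_Hydral replicate 5 and Control_Untx replicate 6. Of 16 endothelial markers 2 were separated lower, and of 19 adventitial fibroblast markers, which include matrix genes, 5 were separated higher and 1 lower. The clock list held 0 separated genes of 17 and the MHC list 0 of 16. Glycolysis held 3 of 21 and the interferon response 3 of 19, all higher, and hypoxia held 3 of 15, immediate early genes 2 of 24, PDGF and FGF signalling 2 of 17 and heat shock 1 of 16, all lower.

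The same threshold divided the VEDS aortas of both treatments into 3 high and 3 low libraries each, and these libraries were not used to choose the control sets. Of 13485 genes, 567 (4.2%) were separated higher and 649 (4.81%) lower in *Col3a1*-high VEDS aortas, again by a division made from the data. Among genes fitted in both genotypes, 322 of 700 separated higher in controls were also separated higher in VEDS aortas (46.0% of the control and 58.1% of the VEDS genes), and 342 of 673 separated lower were also lower (50.8% and 52.9%). None was separated in the opposite direction. *Col1a1* had 2547 to 4778 CPM in high and 751 to 1426 CPM in low VEDS libraries, with a log2 fold change of 1.61 beside 2.23 in controls. *Nox4* had 122 to 178 CPM and 352 to 502 CPM in the same order (-1.43 beside -1.56). *Fasn* had a log2 fold change of 0.41 in VEDS aortas, where it was not separated, beside 1.09 in controls. The list medians were 1.25 for the cell cycle and 0.93 for fibrillar collagens in VEDS aortas, beside 1.61 and 1.18 in controls, and -0.38 beside -0.36 for contractile genes. In lipogenesis 1 of 23 genes was separated higher in VEDS aortas, beside 10 in controls (medians 0.37 and 0.61), and in the respiratory chain 1 of 30, beside 6 (0.27 and 0.31). Fatty acid oxidation had 6 of 23 separated higher in VEDS aortas, beside 9 in controls, and cholesterol synthesis 4 of 22, beside 8. Whether the genotypes differ in any of these values was not tested. In the 6 VEDS libraries of labelled day 60, *Col1a1* had 1416 to 2210 CPM, *Lox* 451 to 744 CPM, *Nox4* 329 to 504 CPM and *Top2a* 5.95 to 19.3 CPM, values given without comparison because genotype and drugs differ.

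**Figure D5:**
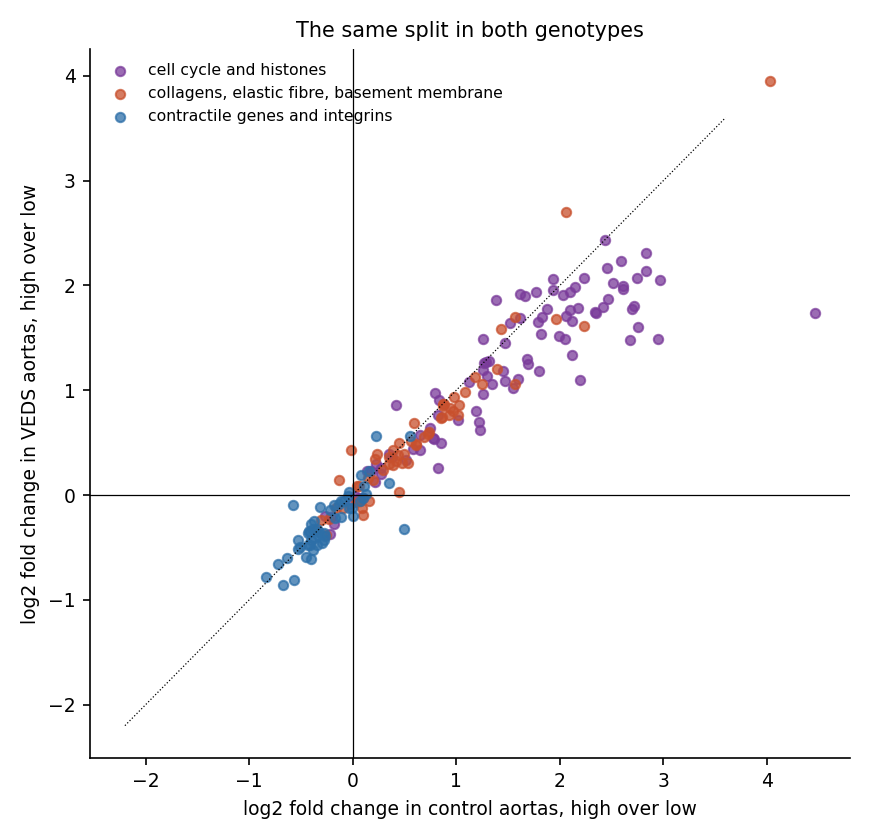
Log2 fold changes, *Col3a1*-high over *Col3a1*-low, in control aortas (horizontal) and VEDS aortas (vertical), with 1 point per gene fitted in both, for cell cycle and histone genes (purple), collagen, elastic fibre and basement membrane genes (orange) and contractile genes and integrins (blue); the dotted line marks equal values. *Col1a1* lies at 2.23 and 1.61 and *Tagln* at -0.45 and -0.60.

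Hydralazine, which the division did not use, could be tested in the 12 controls with the 2 sets as a covariate. In the edgeR quasi-likelihood test with Benjamini-Hochberg adjustment, 0 of 13397 genes (0.0%), *Col3a1* among those fitted, reached an adjusted p of 0.05. Unadjusted p-values of the edgeR test were under 0.05 for 1959 of the 13397 genes, a larger share than the 0.05 expected without any difference. The source of this excess was not tested. With DESeq2, 59 genes passed. *Eln* averaged 10505 ± 6817 CPM in hydralazine and 6881 ± 4616 CPM in untreated libraries (SD, n = 6 each), where the SD includes the difference between sets, with a log2 fold change of 0.64 ± 0.17 (SE, edgeR adjusted p = 0.272, DESeq2 adjusted p = 0.0308). All 3 high hydralazine libraries had more *Eln* than the 3 high untreated ones, and 1 of the 3 low hydralazine libraries, replicate 4, exceeded all low untreated ones. *Mki67* had a log2 fold change of 0.33 ± 0.34 (edgeR adjusted p = 0.69). The 5 smallest p-values belonged to *Galnt16*, *Bmp3*, *Mup19*, *Cldn12* and *Mup17*, with edgeR adjusted p-values of 0.175 to 0.27. DESeq2 adjusted p-values were 5.6e-07 for *Galnt16*, 0.000975 for *Bmp3* and 0.00322 for *Cldn12*, with none for *Mup19* and *Mup17*. Among matrix genes, DESeq2 gave 0.0408 for *Mfap5* and 0.049 for *Col6a3*, but 0.312 for *Col1a1* and 0.452 for *Lox*. Whether a gene was called for hydralazine thus depended on the tool.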

How the data were processed

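Bulk RNA-seq was measured in 30 mouse aortas. The authors made stranded total RNA libraries, used CASAVA 1.8.4 for base calls and RSEM on mm39, and deposited its expected counts, of which 97.6% were whole (tolerance 1e-06). All were rounded. The 12 control libraries were divided at 10000 CPM of *Col3a1* of the file total. Fits were made in R 4.3.3 with edgeR 4.0.16 (TMM factors over all 30 libraries, default expression filter grouped by treatment and set). DESeq2 1.42.0 was an alternative, as were other size factors and filters, a larger fold and leaving out each library. The division, members, 46 gene lists and tests were chosen with earlier results of these data known. Named genes are *Col3a1*, *Eln*, *Mki67*, up to 10 separated genes in each direction and 5 per list and direction at a mean of at least 5 CPM, the 5 smallest p-values for hydralazine, and examples or markers of other tissues. Tested on simulated data, the hydralazine fit, with 200 genes changed, recovered 96% at 2-fold and 76% at 1.5-fold, with 4 false calls. The changed genes had a mean of at least 5 CPM. Counts were drawn independently for each gene, without variation that many genes of a library share, such as that of liver transcripts. The simulation therefore cannot say what share would be recovered in the real libraries. Harvest day and extraction batch are not labelled per library and entered no model. Some members of the lists are not reported here.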

Additional observations from a re-analysis of the deposited data

Results flagged for a closer look

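Levels of the named genes and summed levels of the cell type lists were searched for a single library far from the other 5 of its set, in 248 groups of 6, and 26 were found. Chance alone flags about 1 in 20 groups where these are independent and normally distributed. The groups here share the same 12 libraries, so many flags can come from 1 library and the 26 are not separate events. Among the *Col3a1*-low controls, 11 belonged to Control_Hydral replicate 4, which lay above the other 5 libraries in *Col3a1* (7710 CPM), *Eln* (6707 CPM), *Sparc* (4497 CPM), *Col1a2* (3893 CPM), *Fbn1* (1829 CPM), *Col4a5* (1260 CPM), *Col14a1* (604 CPM), *Adamts2* (356 CPM), *Prelp* (285 CPM), *Bmp1* (186 CPM) and *Loxl2* (104 CPM). In the other low libraries *Col3a1* was at most 5334 CPM and *Sparc* at most 2870 CPM. Control_Untx replicate 2, also *Col3a1*-low, lay apart in *Alb* (4009 CPM), the summed hepatocyte markers (11919 CPM), *Mup7* (356 CPM), *Cyp2c40* (4.50 CPM), *Cyp51* (46.4 CPM) and the summed skeletal muscle markers (18.9 CPM), and below the others in *Itgb1* (1530 CPM) and the summed chondrocyte markers (71.7 CPM). Control_Untx replicate 1 had the lowest *Sparcl1* of the low set (349 CPM) and Control_Hydral replicate 1 the highest summed lymphocyte markers (41.9 CPM). In the high set, Control_Hydral replicate 5 stood out in summed cardiomyocyte (1072 CPM) and skeletal muscle markers (23.6 CPM), Control_Untx replicate 6 in *Mup7* (9.12 CPM) and *Mup19* (4.71 CPM), and Control_Untx replicate 5 in *Ccn4* (55.1 CPM).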

How the results depend on the processing

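The 1376 separated control genes became 600 (419 higher, 181 lower) at a log2 fold of at least 0.58, 972 (465 and 507) with no treatment covariate and overlap judged over all 12 libraries, and 2156 without Control_Hydral replicate 5 and Control_Untx replicate 6, a choice made after seeing the data. With other size factors, DESeq2 fold changes or other expression filters they numbered 1368 to 1437, and leaving out each library gave up to 1738 in controls (750 to 960 higher, 699 to 817 lower) and 1300 to 1610 in VEDS aortas, where the count with all libraries was 1216. Hydralazine called 0 genes in most settings, 59 with DESeq2, and 0 to 2 when each library was left out, the 2 without Control_Hydral replicate 1. No named separated gene reversed its log2 fold change with other size factors, in treatments alone or with libraries left out. In treatments alone and with libraries left out, the definition of a separated gene largely fixes this direction in advance. No list median moved by more than the replicate spread with other size factors. By that measure 3 list medians moved in untreated libraries alone and 3 in hydralazine libraries alone. Without Control_Hydral replicate 5 and Control_Untx replicate 6, 2 moved. In treatments alone, 9 named genes moved by more than that spread in untreated and 10 in hydralazine libraries, among them *Cdk1* (3.21 and 1.68 in untreated and hydralazine libraries). No paired analysis was possible because the labels number no replicates across groups. Depth limits genes near 1 CPM, such as *Cdk1* in low libraries, and levels near 0 of *Cyp2c69* and *Mup7* carry large counting error.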
